A study of Mus musculus with 18 samples.

Results

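The 2 ends of a reprogramming experiment in mouse cells were set against each other: 5 established induced pluripotent stem cell (iPSC) clones and 4 early reprogramming cultures, which together are 9 of the 18 arrays of the series. They were chosen by their sample titles alone, as all arrays of OCK or OSK iPSC clones and all OCK cultures of days 11 and 15. The introduced factors were Oct4, c-Myc and Klf4 in OCK; in OSK, Sox2 took the place of c-Myc. The clones were 2 OCK clones with a knockout (ko) of Tcf3, 1 OSK clone that was wild type (wt) for Tcf3, and 2 OSK clones with the Tcf3 ko. The cultures all received OCK and were 1 wt and 1 ko culture on day 11 and 1 of each on day 15. Tcf3, now named Tcf7l1, is a repressor of Wnt target genes in pluripotent cells. The titles of the ko clone arrays each name 1 clone. That of the OSK wt array names none, and it is called a clone here without a label that says so. A culture array is a mixture of whatever cells the dish held. The labels name no starting cell type and do not say that arrays of a set came from separate cultures or animals, so the spread behind the p-values is that between single arrays and may be technical in part.

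Reprogramming turns a somatic cell, usually a fibroblast, into a cell that self-renews like an embryonic stem cell. The known course has the cells lose their mesenchymal programme, gain epithelial junctions, divide faster, and last of all switch on their own copies of the pluripotency genes, a network of transcription factors around Oct4, Sox2 and Nanog. Embryonic stem cells are also known for a short G1 phase, high activity of DNA methylation and Polycomb enzymes, and a muted response to interferon.

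Values are log2 signals, so a difference of 1 is a 2-fold change. Every array had the same lowest value, 5.64 (a signal of 50), which stands for any level at or below it and is called the floor here. A fold against a set whose arrays were all at the floor is a lower limit. The probe set with the highest mean stood for its gene, and 13814 genes above the floor on at least 1 of the 9 arrays were tested with limma, iPSC mean minus early mean. A gene was called when its adjusted p was under 0.05 and its difference at least 1. Clone values are given in the order OCK ko clones 1 and 2, OSK wt clone, OSK ko clones 1 and 2, and culture values in the order wt day 11, ko day 11, wt day 15, ko day 15. In a culture, fewer cells of a type and less RNA per cell cannot be told apart.

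In the processed values 12211 to 12499 genes were above the floor on each array, and array medians lay between 5.85 and 5.91. These values had already been through RMA and the floor, so their likeness cannot show that the arrays were technically alike. Across all probe sets the correlation was 0.98 to 0.998 in the 10 pairs of clones and 0.992 to 0.997 in the 6 pairs of cultures, against 0.805 to 0.846 in the 20 pairs of a clone with a culture. Of the 13814 genes, 2606 (18.9%) were called higher and 2508 (18.2%) lower, together 37%, and the median difference of all genes was 0.08. At an adjusted p under 0.05 with no fold minimum, 5607 genes (40.6%) were higher and 4514 (32.7%) lower, together 73.3%. Values of the 5 clones and the 4 cultures did not overlap for 9380 genes (67.9%). The falls reached further than the rises: 622 genes were called at least 3 log2 units lower and 264 at least 3 higher, and past 5 units the counts were 147 and 33. The make-up of the sets limits the comparison: 4 of 5 clones but 2 of 4 cultures carried the ko, 3 of 5 clones but no culture received Sox2, no clone was OCK wt, and days 11 and 15 of a genotype may be 1 culture. With OCK ko arrays alone, 2 clones against 2 cultures, limma called 2638 genes higher and 2606 lower, of which 2365 and 2386 were among the calls above.

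**Figure D1:**
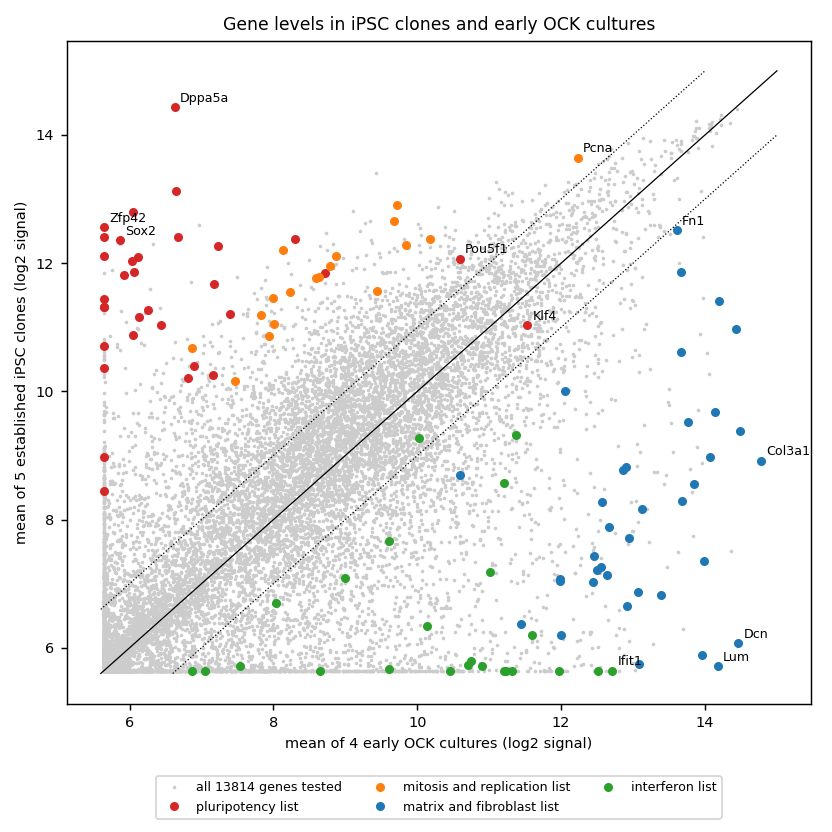
Mean log2 signal of each gene in the 5 iPSC clones (y axis) against the 4 early OCK cultures (x axis), with 13814 genes in grey and 4 gene lists in colour; the solid line marks equal levels and the dotted lines 2-fold differences. Most pluripotency genes lie toward the upper left and matrix genes toward the right edge, with medians of 5.04 and -5.10.

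The labelled cell types were checked against marker genes, by the summed linear signal of each set of markers. The 8 pluripotent stem cell markers summed to between 52793 and 60760 in the clones and between 514 and 931 in the cultures, where 400 would mean all at the floor. The 8 fibroblast markers summed to between 6577 and 8658 in the clones and between 92551 and 96419 in the cultures. All 8 markers of each type were called, in opposite directions. Some markers of other cell types, at or near the floor in the clones, also had signal in the cultures. Macrophage markers (6 measured) summed to 300 to 317 in the clones, where the floor gives 300, and to 2113 to 3918 in the cultures. Keratinocyte markers (6 measured) summed to 312 to 344 in the clones and 3096 to 9459 in the cultures. Only 3 of these 6 were called lower, among them the envelope genes Sprr1a and Sprr1b. In the cultures Sprr1a had 12.70, 12.49, 11.29 and 11.63, and Sprr1b 10.79, 10.22, 6.89 and 8.07. These 2 genes make up a large part of each sum, which therefore does not show keratinocytes by itself. The 2 measured adipocyte markers summed to 100 in every clone, which is the floor, and to 3843 to 15174 in the cultures.

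Genes of the pluripotency network were higher in the clones than in the early cultures in 32 of 33 cases, with a median difference of 5.04. On all 4 cultures 10 of them were at the floor. Dppa5a, an RNA-binding protein of early embryos and the largest rise of all genes, had 14.60, 14.45, 14.41, 14.34 and 14.37 in the clones, against 5.81, 5.95, 7.45 and 7.31 in the cultures. Its difference was 7.81 ± 0.33 (SE), or 224-fold (adjusted p = 6.97e-09), and both day 15 cultures lay above both day 11 cultures. Zfp42, also known as Rex1, is a zinc finger gene used as a reporter of the naive state. It had 12.48, 13.04, 12.28, 12.28 and 12.73 in the clones and was at the floor on all 4 cultures, a rise of at least 121-fold (adjusted p = 6.89e-11). Tfcp2l1, a factor of naive self-renewal, rose at least 109-fold, and Dppa2, a chromatin protein of early embryos, at least 88.7-fold.

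Nanog, a core factor of the network, had 13.18, 13.13, 12.55, 12.56 and 12.56 in the clones, against 5.64, 5.64, 7.28 and 5.64 in the cultures (difference 6.74 ± 0.33, adjusted p = 2.21e-08). Only the wt culture of day 15 was above the floor. Sox2 had 12.50, 12.33, 12.26, 12.30 and 12.42 in the clones, against 5.64, 5.64, 6.54 and 5.64 in the cultures, again with the wt culture of day 15 alone above the floor. The OCK ko clones, which received no Sox2, lay within or above the range of the OSK clones. Tdgf1, a Nodal co-receptor, rose by 6.47 and Fgf4, the growth factor that acts on pluripotent cells themselves, by 6.0. Trim6, a ubiquitin ligase gene, rose by 6.14, and Ooep, a maternal-effect gene of the egg and early embryo, by 6.92. In Ooep the OCK ko clones (13.62 and 13.15) lay above the 3 OSK clones (12.29, 12.41 and 12.30).

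Of the introduced factors, Pou5f1, Klf4 and Myc differed less than Sox2. Pou5f1, which encodes Oct4, had 11.90, 12.35, 11.93, 12.18 and 11.99 in the clones, against 10.58, 10.51, 10.94 and 10.32 in the cultures, a difference of 1.48 ± 0.14 and the smallest rise among the 32. Klf4 was the 1 member not called, with 11.79, 10.94, 10.69, 10.83 and 10.91 in the clones, against 11.57, 11.60, 11.47 and 11.47 in the cultures (-0.49 ± 0.19), and its second probe set averaged 11.53 in clones and 11.33 in cultures. Myc had 5.64, 8.09, 7.71, 7.88 and 7.82 in the clones, against 9.66, 9.40, 9.44 and 9.08 in the cultures, and was called lower (-1.97 ± 0.44, adjusted p = 0.0019). OCK ko clone 1 was at the floor for Myc. No source used here says whether these probe sets also read the introduced copies.

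**Figure D2:**
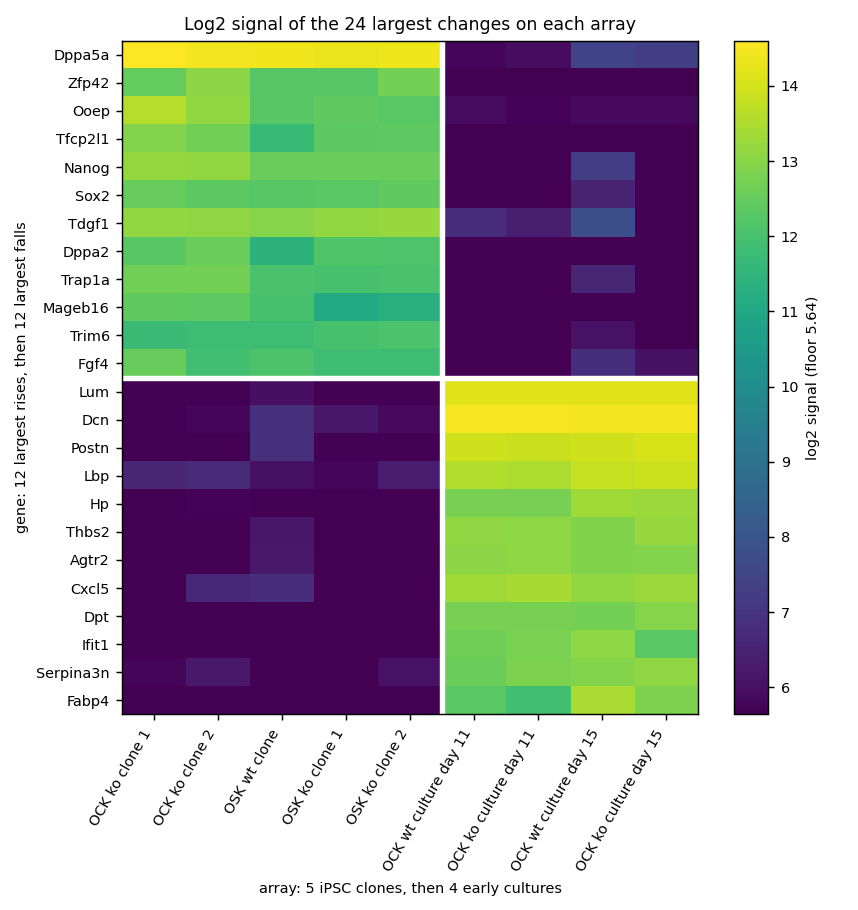
Log2 signal of the 12 largest rises (top) and 12 largest falls (bottom) on each array, with the 5 iPSC clones on the left and the 4 early cultures on the right of the white line; the colour scale starts at the floor of 5.64. Within the rises the wt culture of day 15 is the brightest of the cultures for Nanog (7.28), Sox2 (6.54) and Tdgf1 (7.79).

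The octamer is a sequence that Oct4 and related factors bind. Its 8 letters ATGCAAAT, searched on both strands in the 250 bases before the gene start, were found in 1 of the 23 pluripotency genes that RefSeq promoters (GRCm38.p6) covered, and in 490 of 27025 genes overall (1.81%). That gene was Zfp42, whose stretch is shown because it held the only match among these genes. Capitals mark the octamer, here on the opposite strand (chr8:43307142-43307241, minus strand, 5′ to 3′ toward the gene).
Zfp42: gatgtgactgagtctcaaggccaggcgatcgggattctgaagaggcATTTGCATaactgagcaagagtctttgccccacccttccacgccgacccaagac

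Germ cell genes were higher in the clones in 11 of 15 cases (median 2.72), and 10 of the 15 were at the floor on all 4 cultures. Stra8, which acts at entry into meiosis, had 11.62, 11.31, 10.16, 11.47 and 11.54 in the clones and was at the floor in the cultures, a rise of at least 47.6-fold. Dazl, an RNA-binding protein of germ cells, had 11.84, 10.99, 8.95, 10.45 and 10.39 in the clones and was at the floor in the cultures. In both genes the OSK wt clone was the lowest clone. Tex19.1, which restrains transposons in germ and stem cells, rose by 5.31, and Tdrd12, a piRNA pathway gene, at least 14.7-fold. The X-linked genes Mageb16 (at least 73.5-fold) and Trap1a (6.43) were among the 12 largest rises. Tcstv1, a gene of 2-cell embryos, had 9.41, 8.07, 5.64, 6.98 and 6.06 in the clones and was at the floor in the cultures; its call (adjusted p = 0.0466) was lost under 17 of 24 alternatives, with an adjusted p of 0.0527 without OCK ko clone 1 and 0.0981 without OCK ko clone 2.

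Genes of DNA methylation were higher in the clones in 8 of 9 cases (median 2.12), with Tet3 (-0.29) not called. Tet1, which oxidizes methylated cytosine, had 11.60, 11.62, 12.03, 11.98 and 12.07 in the clones, against 5.64, 5.64, 7.34 and 5.64 in the cultures. The wt culture of day 15 again stood above the other cultures. Dnmt3b, a de novo methyltransferase, had 9.58, 11.10, 12.08, 11.65 and 11.74 in the clones, against 7.04, 6.87, 9.45 and 7.16 in the cultures (3.60 ± 0.61), with OCK ko clone 1 close to the wt culture of day 15. Uhrf1, which brings Dnmt1 to replicated DNA, rose by 3.47, and Zfp57, which protects imprints, by 3.97.

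Of 26 Polycomb genes 12 rose and 3 fell (median 0.86). Subunits of the PRC2 core and its partners were among the rises, with Ezh2, the histone H3 methyltransferase, at 3.11 ± 0.19 and Jarid2 at 3.81. Its paralogue Ezh1 differed by 0.12 and was not called. Cbx7, a chromodomain subunit of PRC1, rose by 3.94, while the related Cbx6 fell by 1.31 and Yaf2 by 1.27. Among 24 genes of the BAF chromatin remodelling complex 5 rose and 2 fell (median 0.56), a share of rises near the 18.9% of all genes. The 5 rises became 3 with the mean of probe sets and 3 with OCK arrays alone. Smarca2, which encodes the ATPase Brm, had 6.48, 6.53, 5.64, 6.04 and 6.25 in the clones, against 9.99, 10.12, 10.24 and 10.30 in the cultures (-3.97 ± 0.17). Smarcc2 fell by 1.25, while Actl6a, the subunit of proliferating cells, rose by 2.42.

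**Figure D3:**
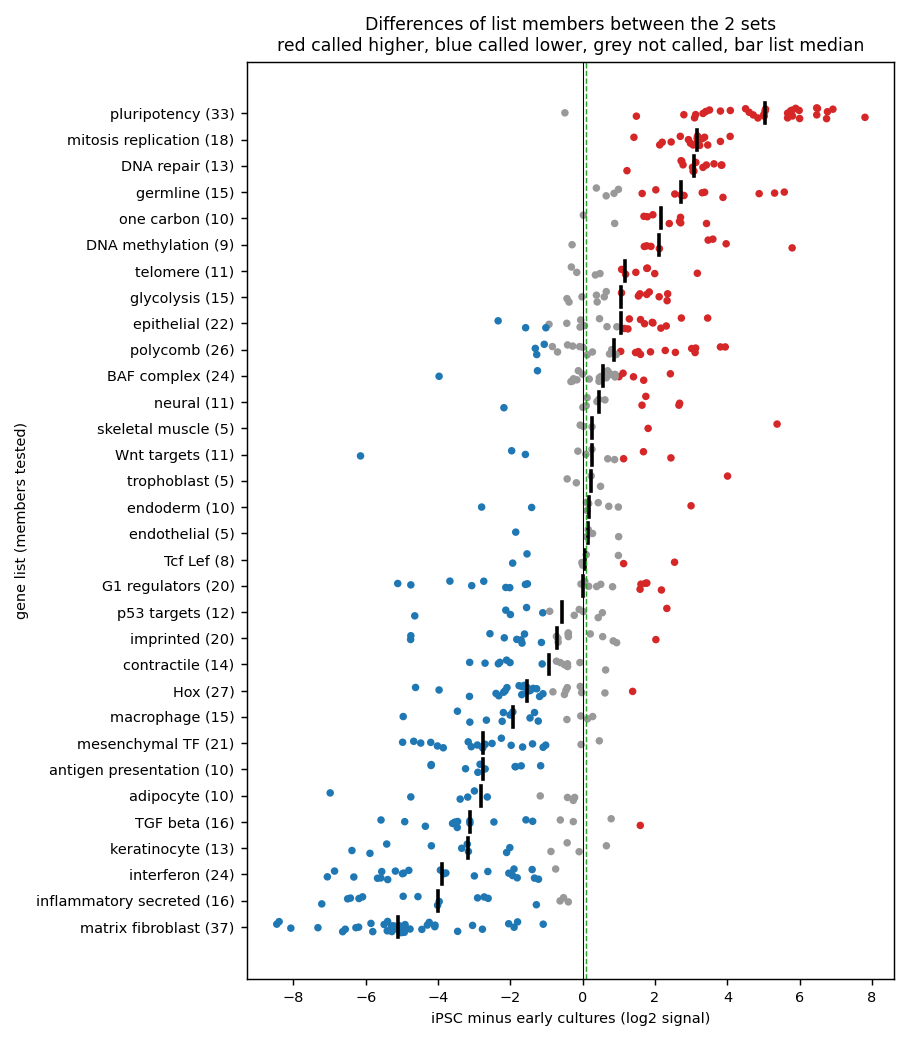
Difference between iPSC clones and early cultures (x axis, log2) for each tested member of the gene lists with at least 5 tested members (y axis, number in brackets); red points were called higher, blue lower, grey not called, black bars are list medians and the green dashed line is the median of all genes, 0.08. The matrix, inflammatory and interferon lists lie lowest, with medians of -5.10, -3.99 and -3.88.

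Every tested gene of mitosis and replication was higher in the clones, 18 of 18, with a median of 3.16. Bub1, a spindle checkpoint kinase, had 12.27, 12.03, 12.26, 12.22 and 12.27 in the clones, against 7.99, 7.72, 9.28 and 7.55 in the cultures (4.08 ± 0.30, adjusted p = 3.7e-07). The median level of the list on each array was 11.92, 11.62, 11.74, 11.77 and 11.81 in the clones, against 8.53, 8.22, 9.48 and 8.23 in the cultures, so the wt culture of day 15 was the highest culture here too. Cdc6, which loads the replicative helicase, rose by 3.81, Mcm5, part of that helicase, by 3.46, and the mitotic kinase Aurka by 3.37. All 13 tested DNA repair genes rose (median 3.07), among them Brca1 (3.85), the uracil glycosylase Ung (3.83), Rif1 (3.63) and the recombination factor Rad54l (3.42). Of 11 telomere genes 7 rose (median 1.18), with Terf1, a shelterin subunit, at 3.17 and Dkc1, a telomerase ribonucleoprotein, at 1.79.

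Regulators of the G1 phase went both ways: 5 of 20 rose and 9 fell (median 0.00), against 18.9% and 18.2% of all genes. The inhibitors of cyclin-dependent kinases were among the falls. Cdkn2a, the Ink4a/Arf locus, had 6.90, 6.64, 6.35, 6.33 and 6.08 in the clones, against 11.72, 11.25, 11.54 and 11.78 in the cultures (-5.12 ± 0.17, 34.7-fold). Its neighbour Cdkn2b fell by 3.07 and the imprinted inhibitor Cdkn1c by 4.75. Ccnd2, a D-type cyclin, fell by 3.67 and Ccnd1 by 1.59. Cdk2 (2.18) and E2f1 (1.77), which drive entry into S phase, rose. Among 12 p53 targets 1 rose and 5 fell (median -0.57): Cdkn1a (-2.13) and the death receptor Fas (-4.65) fell, while Pmaip1, which encodes the apoptosis inducer Noxa, rose by 2.33.

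Of 15 glycolysis genes 8 rose and none fell (median 1.07). Hk2, which traps glucose in the cell, had 11.73, 11.62, 11.98, 12.04 and 11.89 in the clones, against 9.62, 9.61, 9.65 and 9.21 in the cultures. The phosphofructokinase Pfkp rose by 2.35. The glucose transporter Slc2a1 had 11.95, 11.98, 12.07, 11.75 and 11.75 in the clones, against 9.76, 9.85, 11.37 and 9.26 in the cultures, and Aldoc had 8.69, 7.91, 9.20, 9.40 and 9.63 in the clones, against 6.51, 6.57, 7.96 and 6.38 in the cultures. In both the wt culture of day 15 was nearest to the clones, and for Aldoc the sets overlapped. Ldha (-0.38) and Tpi1 (-0.02), the lactate and triose phosphate enzymes, were not called. Of 10 genes that make serine, glycine and one-carbon units 8 rose (median 2.17), with Gldc, which cleaves glycine, at 3.42, Psph, which makes serine, at 2.71, and the folate enzymes Shmt1 at 2.70 and Mthfd2 at 2.68.

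All 37 tested matrix and fibroblast genes were lower in the clones, with a median of -5.10, against 18.2% of all genes called lower. Lum, which encodes the collagen-binding proteoglycan lumican, was the largest fall of all genes. It had 5.64, 5.64, 5.99, 5.64 and 5.64 in the clones, against 14.15, 14.17, 14.21 and 14.17 in the cultures (-8.46 ± 0.10, 353-fold, adjusted p = 1.28e-11). Dcn, decorin, fell by 8.40, the matrix protein Postn by 8.07 and Thbs2, a thrombospondin, by 7.32. The OSK wt clone was the highest clone in each of these genes, with 6.85 for Dcn, 6.88 for Postn and 6.20 for Thbs2. Thy1, a fibroblast surface marker whose loss is used to follow reprogramming, had 6.71, 8.05, 7.26, 6.84 and 6.87 in the clones, against 12.58, 12.63, 12.60 and 12.73 in the cultures. The clones differed more among themselves here than the cultures did: Col1a1, a collagen gene chosen after its values were seen, had 6.42, 8.50, 8.16, 7.05 and 6.61 in the clones, against 13.92, 13.98, 13.98 and 14.08 in the cultures. The list's smallest fall was that of fibronectin, Fn1, which stayed at 12.51 ± 0.15 in the clones (SD, n = 5), against 13.61 ± 0.04 in the cultures (SD, n = 4).

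Mesenchymal transcription factors fell in 19 of 21 cases (median -2.75), and 5 were at the floor on all clones. Prrx1, a homeobox factor of limb and skin mesenchyme, had 5.64, 7.75, 7.50, 6.77 and 6.46 in the clones, against 11.93, 11.93, 11.62 and 11.76 in the cultures. Tbx15 (-4.67), Fosl2 (-4.48) and Twist2 (-4.2) fell, while Msx1 (-0.05) and Msx2 (0.46) were not called. Of 16 TGF-beta pathway genes 12 fell and 1 rose (median -3.12). The type II receptor Tgfbr2 had 6.91, 8.59, 7.90, 7.45 and 7.38 in the clones, against 13.29, 13.21, 13.11 and 13.28 in the cultures (-5.58 ± 0.28, 47.8-fold). Tgfbr3, which presents the ligand, fell by 4.92, the latency protein Ltbp2 by 4.35 and the ligand Tgfb2 by 3.60. The rise was that of Smad7 (1.59 ± 0.11), an inhibitor of the pathway, and the type I receptor Tgfbr1 (-0.62) was not called. Contractile genes fell in 7 of 14 cases (median -0.92), Myl9 by 3.13 and Tagln by 2.29. Tagln had 8.13, 9.94, 10.59, 8.29 and 8.2 in the clones, against 11.59, 11.74, 10.81 and 11.14 in the cultures, so OCK ko clone 2 and the OSK wt clone came close to the cultures.

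Epithelial genes were less uniform, with 11 of 22 higher, 3 lower and a median of 1.05. Cdh1, E-cadherin, had 11.70, 11.51, 11.81, 11.73 and 11.72 in the clones, against 9.26, 8.91, 9.09 and 8.61 in the cultures (2.73 ± 0.13, adjusted p = 1.35e-08), and thus was well above the floor in the cultures already. Epcam, an adhesion protein of epithelia and stem cells, rose by 3.45 and the claudin gene Cldn6 by 2.31. Krt8, a keratin of simple epithelia, went the other way, with 7.62, 9.02, 9.71, 8.67 and 8.48 in the clones, against 11.69, 11.22, 10.26 and 10.98 in the cultures (-2.34 ± 0.39). Rab25, a trafficking GTPase, fell by 1.58. Dsp, a desmosome gene, was called lower (-1.02 ± 0.37, adjusted p = 0.0297) with overlapping sets, and the call was lost under 12 of 25 alternatives, with OCK arrays alone giving -0.40. Keratinocyte genes were also mostly higher in the cultures. The median level of that list was lowest in the wt culture of day 15 (7.69), as were Krt8 (10.26), Rab25 (8.39) and Dsp (9.83). Elsewhere they parted: Rab25 was highest in the ko culture of day 15 (9.34), where the list median was 8.07. In the partial iPSC clone with control siRNA the list median was 5.90, with Krt8 at 10.28 and Dsp at 10.55. The part of keratinocytes was not tested.

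Interferon-induced genes were lower in the clones in 23 of 24 cases (median -3.88), and 10 of the 24 were at the floor on all 5 clones while above it on all cultures. Ifit1, which binds foreign RNA, was at the floor on all 5 clones, against 12.64, 12.80, 13.09 and 12.30 in the cultures, at least 134-fold lower (adjusted p = 2.98e-11). The receptor transporter gene Rtp4 was at least 117-fold lower, Ifit3 at least 80.5-fold and the guanylate-binding protein gene Gbp3 at least 51.1-fold. The ko culture of day 15 was the lowest culture for Ifit1 and Ifit3 (11.49) and the wt culture of day 15 the highest (12.50 for Ifit3). Ddx58, which encodes the RNA sensor RIG-I, was the member not called (-0.75). All 10 tested genes of antigen presentation by MHC class I fell (median -2.77). B2m, the light chain of MHC class I, had 9.66, 9.74, 10.03, 9.57 and 9.55 in the clones, against 13.91, 13.99, 13.75 and 13.96 in the cultures (-4.19 ± 0.11). The immunoproteasome gene Psmb8 (-4.2), the peptide transporter Tap1 (-3.24) and Erap1 (-2.90), which trims peptides, fell.

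The interferon-stimulated response element is the sequence through which interferon switches on such genes. Its core GAAANNGAA, searched on both strands in the 250 bases before the gene start, was found in 10 of the 18 interferon genes with a RefSeq promoter (55.6%), against 8.18% of all 27025 genes. A match is a stretch of letters and not a measured binding site. The stretches of the 4 called members with the largest falls among them are shown 5′ to 3′ toward the gene in GRCm38.p6, with matches in capitals; the matches read as the reverse complement of the core, and adjoining matches overlap. They lie at chr19:34640759-34640858 (plus strand, Ifit1), chr19:34583381-34583480 (plus, Ifit3), chr3:142559944-142560043 (plus, Gbp3) and chr2:62646314-62646413 (minus, Ifih1); the first 2 capitals of the Ifit3 stretch are the end of a further match.
Ifit1: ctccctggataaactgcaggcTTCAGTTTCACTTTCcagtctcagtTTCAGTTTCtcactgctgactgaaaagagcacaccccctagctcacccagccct
Ifit3: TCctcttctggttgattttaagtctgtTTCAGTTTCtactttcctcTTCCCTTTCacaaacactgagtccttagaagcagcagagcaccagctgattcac
Gbp3: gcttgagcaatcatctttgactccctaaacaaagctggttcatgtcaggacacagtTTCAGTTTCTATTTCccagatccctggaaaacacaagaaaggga
Ifih1: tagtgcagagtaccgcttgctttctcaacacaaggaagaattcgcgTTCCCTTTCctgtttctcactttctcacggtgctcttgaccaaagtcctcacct

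Secreted inflammatory genes fell in 13 of 16 cases (median -3.99). The neutrophil chemokine Cxcl5 had 5.64, 6.63, 6.76, 5.64 and 5.64 in the clones, against 13.32, 13.42, 13.15 and 13.24 in the cultures. Ccl2 and Ccl7, which attract monocytes, fell by 6.50 and 6.19, and Cxcl1 by 6.43. Among the 12 largest falls, Lbp, which binds bacterial lipopolysaccharide, fell by 7.40, haptoglobin (Hp) by 7.36 and the protease inhibitor Serpina3n by 6.99. Agtr2, an angiotensin receptor of fetal mesenchyme, fell by 7.23, and the matrix protein gene Dpt was at least 143-fold lower, at the floor on all clones.

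Genes of macrophages, keratinocytes and adipocytes were mostly lower in the clones, against 18.2% of all genes called lower. Of 15 macrophage genes 11 fell (median -1.93), and 7 were at the floor on all clones. Lyz2, lysozyme, was at the floor on all 5 clones, against 10.34, 10.31, 10.56 and 11.23 in the cultures. Cd14 fell by 3.47, the cathepsin gene Ctss at least 8.71-fold and the growth factor receptor gene Csf1r by 2.66. Of 13 keratinocyte genes 9 fell (median -3.16). Sprr1a, a cornified envelope gene, was at the floor on all clones, against 12.70, 12.49, 11.29 and 11.63 in the cultures, where day 11 lay above day 15. Krtdap fell by 5.89, Krt6a by 5.42 and Cnfn at least 18.2-fold.

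Of 10 adipocyte genes 6 fell (median -2.82). Fabp4, a fatty acid carrier, was at the floor on all clones, against 12.32, 11.88, 13.47 and 12.85 in the cultures, at least 127-fold lower. Adipoq, the fat cell hormone adiponectin, was at the floor on all clones, against 7.0, 6.05, 11.91 and 11.17 in the cultures, so its level in the early set depended on the day. With day 11 cultures alone its difference was -0.88, and its call was lost under 6 of 24 alternatives. Lpl, lipoprotein lipase, fell by 4.76 and the adipocyte regulator Cebpa by 3.18. Of 5 endothelial genes 1 fell, the receptor gene Tek (-1.85), a share near the 18.2% of all genes. The median of that list was 0.15.

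Markers of other lineages stayed mostly low in both sets. Mylpf, a light chain of fast skeletal muscle, was an exception, with 11.31, 12.04, 10.69, 11.29 and 10.95 in the clones, against 5.75, 5.64, 6.11 and 6.02 in the cultures (5.37 ± 0.24, 41.5-fold). The muscle regulators Myog and Myod1 were at the floor on all 9 arrays, and Tnnt1, a slow muscle troponin, rose by 1.81. Of 11 neural genes 4 rose and 1 fell (median 0.44), with the intermediate filament gene Ina at 2.68, the RNA-binding protein Msi1 at 2.66, Tubb3 at 1.74 and the patterning factor Zic1 lower by 2.18. Ina had 6.49, 8.28, 9.36, 8.75 and 8.77 in the clones, with OCK ko clone 1 lowest. Tfap2c, a factor of trophoblast and germ cells, was the only 1 of 5 trophoblast genes called (4.0), and Eomes the only 1 of 4 mesoderm genes (1.68). In the endoderm list of 10, the laminin gene Lama1 was at the floor on all cultures and rose at least 7.98-fold, while Dab2 (-2.80) and Gata6 (-1.41) fell. Among all genes 18.9% were called higher and 18.2% lower. Counts as small as those of the muscle, neural, trophoblast, mesoderm and endoderm lists are therefore not a result about the lists.

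Hox genes, which record position along the body axis, fell in 19 of 27 cases, with 1 rise and a median of -1.53. Hoxc8 was at the floor on all 5 clones, against 10.13, 10.31, 10.15 and 10.48 in the cultures, at least 24.7-fold lower. Hoxd8 fell by 3.97, Hoxa9 by 3.13 and Hoxb6 at least 5.27-fold. Hoxc13 was the rise, with 7.92, 6.92, 6.15, 6.81 and 7.31 in the clones and the floor in all cultures. Of 20 imprinted genes 9 fell and 1 rose (median -0.71). Igf2, a fetal growth factor, had 7.81, 9.32, 10.64, 8.99 and 8.88 in the clones, against 13.81, 13.75, 13.94 and 14.05 in the cultures (-4.76 ± 0.43). Sgce fell by 2.57 and Phlda2 rose by 2.02. Meg3, a maternally expressed non-coding RNA, had 9.33, 8.18, 11.77, 11.09 and 11.04 in the clones, against 12.67, 12.43, 12.44 and 12.28 in the cultures (-2.17 ± 0.63, adjusted p = 0.00933), with the 2 OCK ko clones below the 3 OSK clones. The call of Meg3 was lost with day 11 cultures alone (adjusted p = 0.053), with day 15 cultures alone (adjusted p = 0.069) and with the mean of its probe sets (-0.92).

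Wnt targets went in both directions, 3 of 11 higher and 3 lower (median 0.25). Of all genes 18.9% were called higher and 18.2% lower. Counts this small, here and for the Tcf/Lef genes below, are therefore not a result about the list. Lgr5, a receptor for R-spondins, was at the floor on all 5 clones, against 11.54, 11.60, 11.92 and 12.11 in the cultures, at least 70.8-fold lower. Notum, a secreted Wnt inhibitor, was at the floor on all cultures, against 8.22, 9.11, 7.39, 7.94 and 7.76 in the clones. Cdx1 was at the floor on all cultures and on the OSK wt clone, with 6.88, 7.57, 8.23 and 8.29 in the 4 ko clones. Of 8 Tcf/Lef factors and their Tle corepressors 2 rose and 2 fell (median 0.05): Tle4 rose by 2.54 and Lef1 at least 2.19-fold, and Tcf7l2 fell by 1.94 and Tle2 by 1.54. The call of Lef1 was lost under 8 of 24 alternatives, among them OCK arrays alone (0.36). Tcf7l1 itself, the gene deleted in the ko, was not called, with 9.45, 9.56, 10.68, 9.49 and 9.37 in the clones, against 9.90, 9.48, 9.70 and 9.37 in the cultures (0.10 ± 0.25). Its ko arrays were far above the floor, and no source used here says where its probes lie relative to the deleted part.

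The Y-linked genes Eif2s3y, Kdm5d and Uty were at the floor on all 5 clones and above it on all 4 cultures. Eif2s3y had 9.39, 9.41, 9.39 and 9.33 in the cultures and Kdm5d 8.77, 8.67, 8.86 and 8.61. The Y-linked genes were also above the floor on every later culture and in the partial iPSC clone. There Eif2s3y had 8.98 and 9.67 in the wt and ko cultures of day 26, and 8.97 in the partial clone with control siRNA. Xist, the RNA that silences an X chromosome in female cells, was at the floor on all clones too, against 6.72, 7.59, 7.08 and 6.84 in the cultures, at least 2.66-fold lower (adjusted p = 8.19e-06). No source used here gives the sex of the animals or cells, so the sex of the starting cells and the state of the cells cannot be told apart for these genes. X-linked genes were then compared with autosomal ones, a comparison chosen after values had been seen and therefore not tested. Over 331 X-linked genes above the floor on all 9 arrays, the median difference from the early mean, less that of 10335 autosomal genes, was 0.48 and 0.43 in the OCK ko clones, 0.11 in the OSK wt clone and -0.08 and -0.13 in the OSK ko clones. The 4 cultures lay between -0.01 and 0.01, but they were measured from their own mean, which centres them near 0. Of 450 X-linked genes tested, 28.9% were called higher, against 18.6% of 13299 autosomal genes.

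**Figure D4:**
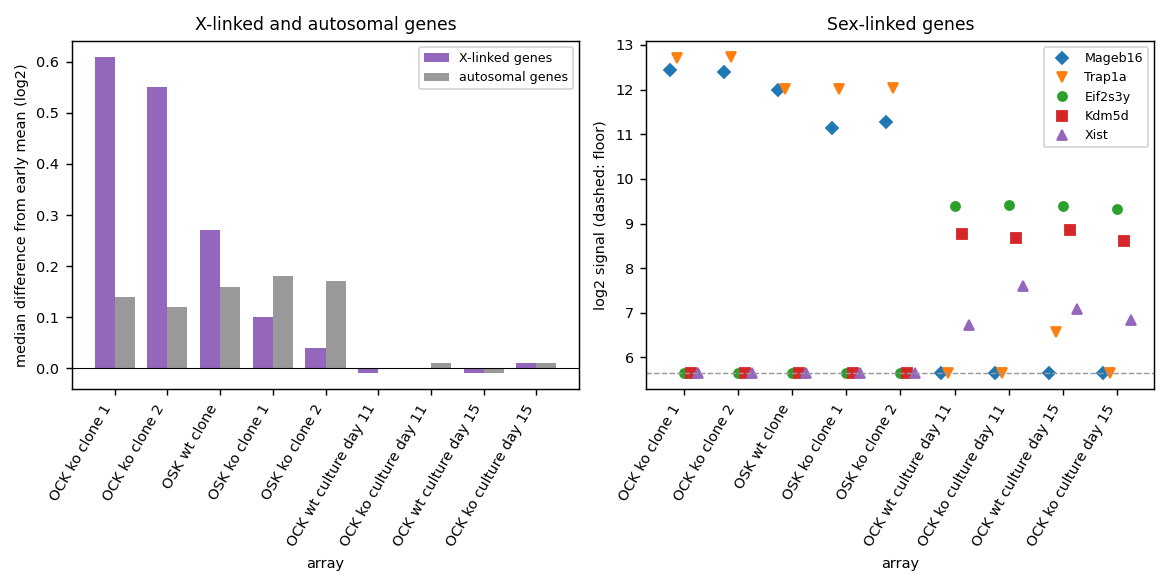
Left, median difference from the early culture mean (log2) of 331 X-linked (purple) and 10335 autosomal genes (grey) on each of the 9 arrays; the X-linked bars reach 0.61 and 0.55 in the 2 OCK ko clones and 0.10 and 0.04 in the OSK ko clones. Right, log2 signal of 3 genes at the floor in every clone (Eif2s3y, Kdm5d, Xist) and of 2 X-linked genes that were high in every clone (Mageb16, Trap1a), with the floor dashed.

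Genes present in 1 set and absent from the other were counted without a test. At the floor on all 4 cultures and above it on all 5 clones were 401 genes (2.9%), of which 174 were at least 1 log2 unit above it on every clone. The reverse held for 568 genes (4.11%), 317 of them with that margin. The largest of the first kind, chosen after their values were seen, included Esrrb, a naive pluripotency factor (at least 55.7-fold), Rnf17, a germ cell gene of the piRNA pathway (at least 36.2-fold), and Hsf2bp, which acts in meiotic recombination (at least 31.3-fold). The 5 clones lay close together for Rnf17 (10.62, 10.81, 10.77, 10.99 and 10.91) and Hsf2bp (10.55, 10.64, 10.51, 10.64 and 10.71). The largest of the second kind included Steap4, a metal reductase (at least 113-fold), Lcn2, which binds bacterial iron carriers (at least 113-fold), and the chemokines Ccl11 (at least 87.0-fold) and Ccl8 (at least 72.5-fold).

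Differences within the sets were counted over all 13814 genes tested, called or not. The means of the clones and the cultures differed by at least 1 in 5125 genes (37.1%). The mean of the OCK ko clones differed from that of the OSK clones by at least 1 in 361 genes (2.61%), day 15 from day 11 cultures in 160 (1.16%), and ko from wt cultures in 15 (0.109%). The median size of the difference between the sets was 0.69, and the median SD was 0.16 among clones and 0.11 among cultures. The largest differences of OCK ko from OSK clones among called genes were those of Calcoco2 (2.76), an autophagy receptor gene, BC080696 (2.66), Serpinb1a (2.65), a protease inhibitor, and Gm11544 (2.58). The fifth was Mycn, whose 2.55 rested on OCK ko clone 2, with 11.87 against 8.76 in OCK ko clone 1. For Mycn the probe sets disagreed: the brightest, which stands for the gene, averaged 8.79 in clones and 13.79 in cultures, while the other two averaged 11.08 and 8.01 in clones, against 6.04 and 5.64 in cultures. No direction is therefore given for Mycn, between the sets or between OCK ko and OSK clones. Other named genes had a dimmer probe set with a difference near 0, among them Fn1 (-0.02), Fosl2 (-0.11) and Meg3 (-0.21). The largest differences of day 15 from day 11 cultures were those of Adipoq (5.02), the carbonic anhydrase gene Car3 (4.76) and Wfdc21 (3.0), higher on day 15, and of the keratinocyte genes Sprr1b (-3.03) and Rptn (-2.40), lower on day 15. The calls of BC080696, Gm11544, Car3 and Wfdc21 were lost under 10, 16, 10 and 11 of the 24 alternatives that could be run for them.

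Whether the distance depended on Tcf3 was tested as the OSK ko clones minus ko cultures, less the OSK wt clone minus wt cultures. By limma 5 of the 13814 genes passed (0.0362%), and 1225 had a p under 0.05 before adjustment. Fhl1, a LIM-domain gene, had a distance of -2.06 in ko and 0.25 in wt (difference -2.31 ± 0.14, adjusted p = 0.00816), with 8.10 and 8.09 in the OSK ko clones and 10.25 in the OSK wt clone. The OCK ko clones, which were not part of that difference, had 9.80 and 9.84, nearer to the OSK wt clone than to the OSK ko clones. Fhl1 is X-linked, as are 3830417A13Rik and 4933402E13Rik, which also passed. The X-linked genes as a group, less the autosomal ones, lay at -0.08 and -0.13 in the OSK ko clones and 0.11 in the OSK wt clone. Whether this bears on the genes that passed was not tested. Csrnp3 (2.70 ± 0.20, adjusted p = 0.0116) and Hal, a gene of histidine breakdown (2.03 ± 0.20, adjusted p = 0.0417), had the longer distance in ko. The wt side held 1 clone, assumed to vary like the others, and the count was 0 when any 1 of the OSK ko clones or cultures was left out, and 166 or 169 without either OCK ko clone.

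The other 9 arrays of the series were placed on the line between the sets, with 0 for the early mean and 1 for the clone mean, as the median over called genes. This is a description with no test. Over all 5114 genes the ko cultures lay at 0.22, 0.46 and 0.31 on days 19, 22 and 26, and the wt cultures at 0.20, 0.32 and 0.27. A partial OCK iPSC clone was sampled on day 2 after siRNA. It was taken as wt, though its titles name no genotype. The clone lay at 0.55 and 0.55 with 2 siRNAs against Tcf3 and at 0.48 with a control siRNA. The lists did not move together. Glycolysis genes of the day 26 cultures lay at 0.92 in ko and 0.73 in wt, while the partial clone lay between 0.21 and 0.28. Matrix genes of the day 26 cultures lay at 0.15 in ko and 0.13 in wt, while the partial clone lay between 0.59 and 0.68. Macrophage genes lay at 1.00 in every culture from day 22 and in the partial clone. Pluripotency genes lay at 0.49 in the ko and 0.28 in the wt culture of day 26, and between 0.18 and 0.23 in the partial clone. Over the 12 of them above the floor on all 9 compared arrays the values were 0.60 and 0.39 on day 26 in ko and wt, and 0.32, 0.38 and 0.41 in the partial clone with siTcf3-A, siTcf3-B and the control siRNA. The 11 called germ cell genes had a median of 0.00 on all 9 of these arrays, the value of a gene at the floor. Single members were above it: Stra8 had 6.46 in the ko culture of day 26 and 6.89 with siTcf3-A. The 1.00 of the macrophage genes is likewise a value set by the floor.

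**Figure D5:**
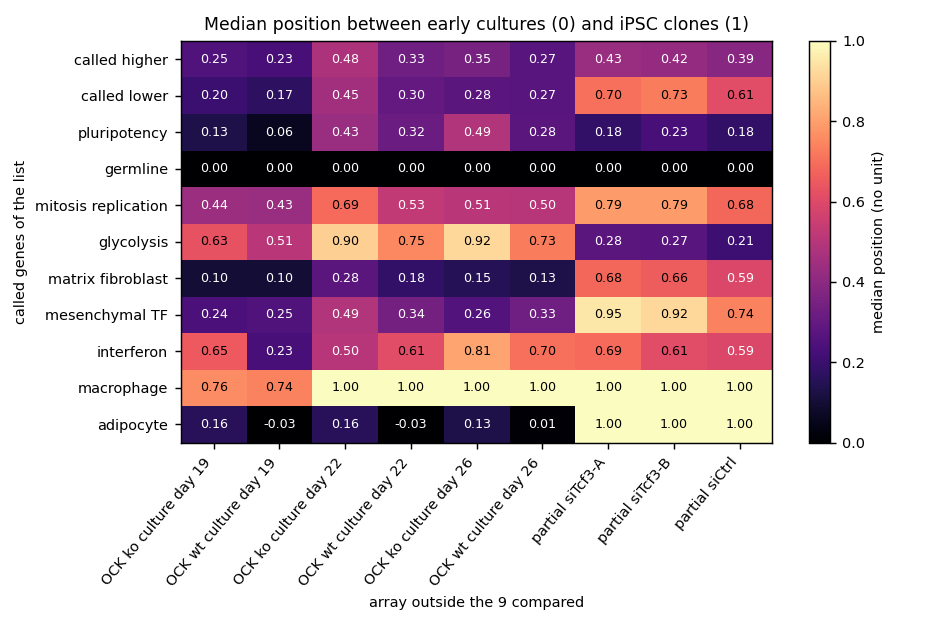
Median position of called list members (y axis) on the 9 arrays that the comparison did not use (x axis), where 0 is the mean of the early cultures and 1 that of the iPSC clones. The germ cell row is at 0.00 throughout and the macrophage row at 1.00 from day 22 and in the partial clone, both values set by the floor.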

How the data were processed

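RNA of 18 mouse samples was measured on 1 Affymetrix array each; 9 arrays entered the comparison, 5 of iPSC clones and 4 of early OCK cultures, grouped by their labels. The deposited table held log2 values of 40508 probe sets, made by the authors with RMA per the submitters' processing notes; no source used here gives its version or settings. Between 45.5% and 46.6% of the values on each of these arrays equalled the floor, a step seen in the deposited log2 values that no label names. Gene names came from the platform annotation: 31076 probe sets had 1 symbol, 636 several and 8796 none, giving 17903 genes. limma 3.58.1 (R 4.3.3) was fitted to the 9 arrays with Benjamini-Hochberg adjustment over all genes tested. Since floored genes show no spread, the prior variance came from 10701 genes above the floor on all 9 arrays, and floored genes got at least that variance; 4089 genes at the floor on all 9 were left out. The code was tested on simulated data. The members, the 35 gene lists and the tests were chosen with earlier results of these data known. Named genes are the 12 largest rises and 12 largest falls, up to 4 called members per list and up to 2 against its direction, the introduced factors and sex-linked genes, and the 5 largest differences within each set. Promoter sequences are RefSeq's (GRCm38.p6). Alternatives covered the variance model, normalization, probe set choice, floor filters, genotype, subsets of arrays and leaving out each array. Precision is limited by the number of arrays.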

Additional observations from a re-analysis of the deposited data

Results flagged for a closer look

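In groups of 4 or 5 arrays, a single array lay far from the others for 33 of the named genes' sets. Chance alone singles out about 1 in 20 groups, and where the others are at the floor any value above it stands apart. The number of groups looked at is not given here, so the 33 cannot be set against that rate. No cause was tested.

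The wt culture of day 15 accounted for 12 of these, as the highest culture for Nanog (7.28), Sox2 (6.54), Trap1a (6.56), Trim6 (6.07), Cldn6 (5.96), Ina (5.68), Msi1 (7.37), Tfap2c (5.75), Tet1 (7.34), Dnmt3b (9.45) and Aldoc (7.96) and the lowest for Hoxa9 (8.48). The ko culture of day 15 was highest for Dpt (12.97) and lowest for Hk2 (9.21), and the wt culture of day 11 was lowest for E2f1 (7.54).

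The OSK wt clone was the highest clone for Lum (5.99), Postn (6.88), Thbs2 (6.20), Agtr2 (6.24) and Tgfb2 (6.02), for Zic1 (5.65), Hoxa9 (5.71) and Car3 (6.41), and for Tcf7l1 (10.68), for which it is the only wt clone. It was the lowest clone for Stra8 (10.16). OCK ko clone 2 was highest for Hp (5.72), Erap1 (6.06) and Fas (5.82) and lowest for Bub1 (12.03). OCK ko clone 1 was highest for Tek (8.72) and Klf4 (11.79) and lowest for Myc (5.64), and OSK ko clone 1 was highest for Krtdap (5.83).

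The distance from early cultures to OSK clones differed between ko and wt by limma's test of that difference in Fhl1 (-2.31), Csrnp3 (2.70), 3830417A13Rik (-2.26), 4933402E13Rik (-2.48) and Hal (2.03). No gene was called when either OSK ko clone or any culture was left out, and the wt side held 1 clone. 3830417A13Rik and 4933402E13Rik were at 5.64 in the wt and ko cultures and at 7.91 and 8.24 in the OSK wt clone, with 5.88 and 5.64 for 4933402E13Rik in the OSK ko clones but 7.58 and 7.13 in the OCK ko clones. Both genes are X-linked, as is Fhl1.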

How the results depend on the processing

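Leaving out each array in turn gave 2557 to 2645 genes called higher and 2475 to 2568 called lower, and every other alternative with a fold minimum stayed within 1.5 times the reported counts; without a fold minimum limma called 5607 higher and 4514 lower. A random block for arrays of one label group (correlation 0.319) gave 2603 and 2499. Under median centring 46.3% of the calls were rises, compared with 51.0% as reported. The 5 genes called for the ko minus wt distance became 12 with the plain prior, 8 with the mean of probe sets, and 0 to 169 when 1 array was left out. With a margin of 1 log2 unit the counts of genes present in 1 set alone fell to 174 and 317. Of 161 named genes, 140 kept direction and call under every alternative run for them, which was 25 for 83 genes and 24 for the 78 that the filter on floored genes removed. Mycn turned to 0.80 with the mean of its probe sets, which disagree. Tcf7l1 was 0.00 with median centring, -0.11 with OCK arrays alone and -0.15 without the OSK wt clone, and up to 0.19 without another array. The mean of probe sets took the call from 13 others, with Msi1 at 0.97, Gata6 at -0.70, Smarcd1 at 0.84, Bcl7a at 0.37, Meg3 at -0.92, Tcf7l2 at -0.90, Uty at -0.76, Xist at -0.94, Rptn at -0.87, Dsp at -0.51 and Lef1 at 0.56, under the fold minimum, and Tcstv1 and Gm11544 past the p threshold. Yaf2 lost its call with OCK arrays alone (-0.98), and Cdx1 with cultures of either day alone. Of the 35 list counts, 15 were rated the same under all 25 alternatives, and the others moved under at least 1. The 4 neural rises became 2 with the mean of probe sets. Testing only genes above the floor on all 9 arrays removed floored members. Then 12 pluripotency and 0 germ cell genes were called higher. Called lower were 7 interferon, 7 mesenchymal, 11 Hox and 0 macrophage genes. No paired analysis was possible because the cultures carry no replicate numbers and clone numbers name clones only.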
